A study of Mus musculus with 14 samples.

Results

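The potassium channel genes of mouse brain were taken as every gene whose symbol has the form Kcn, a family letter or letters, and a number. The rule found 87 genes of the 31507 in the deposited expression table: 74 pore-forming subunits and 13 auxiliary subunits. The mice belonged to 3 groups. Acupuncture mice had an intracerebral haemorrhage (ICH) and then needling at the scalp point GV20 on 7 consecutive days, ICH mice had the haemorrhage, labelled as autologous blood, without needling, and sham mice had a sham operation. Both haemorrhage groups therefore carry the bleed, and the sources used here give no needled group without it. Each sample was split into m6A immunoprecipitate (IP) and input RNA, so 14 libraries came from 2 acupuncture, 2 ICH and 3 sham brain tissue samples. The tissue is given only as brain, with no region, strain, sex or age.

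Potassium channels let potassium leave or enter the cell, and so set the resting potential, shape the action potential and clear potassium from the extracellular space. Voltage-gated Kv channels repolarise axons and dendrites, with Kv1 channels at axons, Kv3 channels in fast-spiking neurons and Kv7 channels giving the M-current that damps repetitive firing. Inward rectifiers (Kir) and two-pore-domain channels (K2P) carry current near rest in neurons, astrocytes, microglia and vascular mural cells, and auxiliary subunits bind the pore proteins and change their traffic or gating. N6-methyladenosine (m6A) is a methyl mark on mRNA that tends to sit near stop codons and in 3′UTRs.

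RNA levels are the authors' FPKM, fragments scaled by transcript length and library size, in the 7 input libraries, so levels can be compared between genes per length. The number of reads behind a value is not known. Differences are on the log2(FPKM + 1) scale, which understates the change of low genes, and were tested with limma over the 13666 genes averaging 1 FPKM or more, called at a Benjamini-Hochberg adjusted p below 0.05. Nothing in the labels says that replicates came from separate animals, so p-values measure the spread between these samples, and in bulk tissue fewer cells of a type and less RNA per cell cannot be told apart. The 2 ICH libraries correlated at r = 0.942 over all tested genes, against 0.976 for the acupuncture pair and 0.983 to 0.988 for the sham pairs, and acupuncture replicate 2 had 1.13 FPKM of the choroid plexus transcript Ttr, against 326 to 473 FPKM in the other 6 libraries. Neuronal identity of the tissue showed in 9 pan-neuronal markers, which summed to 834 to 900 FPKM in acupuncture, 898 to 1089 FPKM in ICH and 951 to 1025 FPKM in sham libraries, with 0 of 9 called in any comparison. The columns headed EA and control were taken as acupuncture and sham because no other label could match them.

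Of the 87 genes, 67 passed the filter on low values and 20 did not. The lowest that passed were Kcnj8, Kcns3 and Kcng2, at means of 1.20, 1.23 and 1.25 FPKM over the 7 libraries, and the highest that did not were Kcnmb2, Kcnk10 and Kcnh6 at 0.847, 0.790 and 0.742 FPKM. Kcnv2 was listed at 0 in every library. In sham brain the transcripts of highest level were not pore subunits alone. Kcnab2, the Kvβ2 subunit that binds Kv1 channels, led at 50.1 ± 3.01 FPKM (SD, n = 3 for all sham means here). Kcnj4 (Kir2.3) followed at 42.0 ± 2.87 FPKM and Kcnj10 (Kir4.1), the main potassium conductance of astrocytes, at 38.2 ± 4.38 FPKM. The SDs of Kcnj4 and Kcnj10 meet, so the order of those neighbours does not stand clear of their spread. Kcnk1 (TWIK1) had 31.8 ± 2.44 FPKM, Kcnj9 (GIRK3) 29.97 ± 4.07 FPKM and Kcnip2 (KChIP2, a partner of Kv4 channels) 29.4 ± 1.13 FPKM, again within each other's spread. Below these came Kcnf1, a silent subunit that forms channels only with Kv2 partners, at 22.6 ± 1.43 FPKM, and Kcna2 (Kv1.2) at 21.3 ± 1.503 FPKM. Summed by subfamily, auxiliary subunits had 162 ± 10.3 FPKM and inward rectifiers 161 ± 4.402 FPKM, against 66.9 ± 2.27 FPKM for Kv3 and 64.6 ± 1.88 FPKM for Kv1.

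Acupuncture against sham held the most calls. Acupuncture brains had lower transcripts of the Kv1 subunit Kcna1, the Kv3 subunits Kcnc1 and Kcnc2, the Kv7 subunit Kcnq3, the rectifier Kcnj2, the two-pore channel Kcnk2 and the auxiliary subunits Kcnab1 and Kcne2, and higher Kcnk6 and Kcnab3. Thus 10 of 67 tested channel genes were called, or 14.9%, against 11.7% of all tested genes. By direction, 2 channel genes were higher (2.99%, against 8.47% of all genes) and 8 lower (11.9%, against 3.22% of all genes). At an unadjusted p below 0.05, 21 were past the threshold, with 25.5% of all genes as background. Acupuncture and sham libraries did not overlap for 6 genes that were higher and 27 that were lower, where the shares among all genes were 31.8% and 23.4%. The log2 fold change was below 0 for 49 of 67 channel genes, or 73.1%, against 44.2% of all genes, and its median was -0.11 for channel genes and 0.04 for all genes. Another scaling moved the split: quantile normalization gave 1 higher and 12 lower channel genes, with 923 higher and 721 lower among all genes, and upper-quartile scaling 1 and 11, with 1001 and 801 among all genes, where the values as deposited gave 1158 and 440. The largest shift of the all-gene median by a scaling was -0.09.

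**Figure D1:**
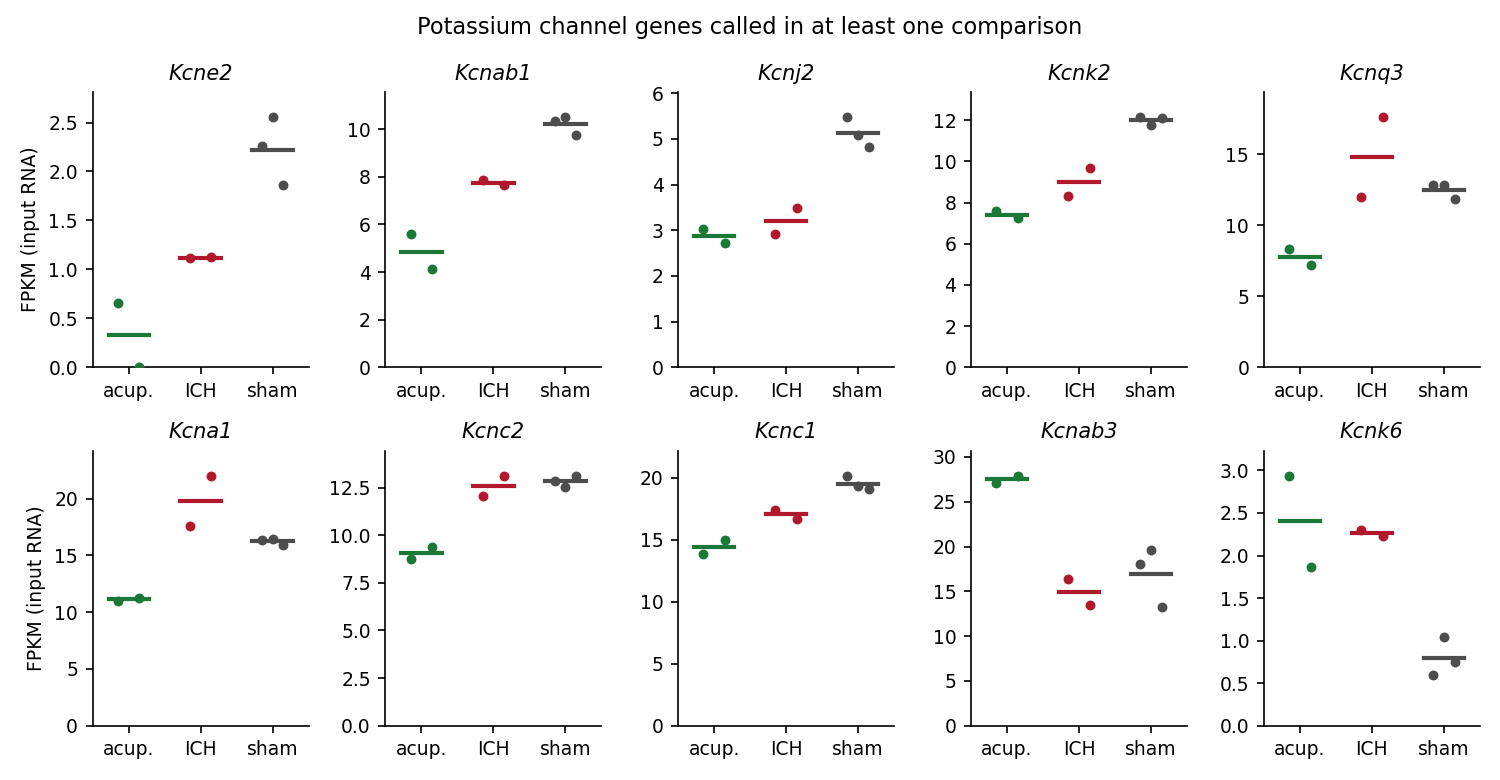
Input RNA level in FPKM (vertical axis, from 0) of each potassium channel gene called in at least 1 comparison, with acupuncture, ICH and sham libraries from left to right; points are libraries and short lines group means. Kcnab1, Kcnk2 and Kcnc1 lie lower in both acupuncture libraries than in all 3 sham libraries, and Kcnk6 lies higher in all 4 haemorrhage libraries than in sham.

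The axonal Kv1 subfamily held 1 called gene of 6 tested in acupuncture against sham. The 8 Kv1 genes summed to 46.2 and 46.9 FPKM in acupuncture, 63.1 and 63.9 FPKM in ICH, and 66.3, 64.9 and 62.6 FPKM in sham libraries, so the acupuncture pair stood apart from the other 5. All 6 tested Kv1 genes had a negative log2 fold change in acupuncture against sham, with a median of -0.48. So did all 3 tested Kv4 genes, at a median of -0.09. Under both other scalings the 6 Kv1 genes stayed negative, as was every tested gene of Kv2, Kv3, Kv4 and Kv7. Of all 67 channel genes, 57 were negative under quantile normalization and 59 under upper-quartile scaling, where 49 were in the values as deposited. The called Kv1 gene was Kcna1 (Kv1.1), the axonal channel whose loss causes episodic ataxia and seizures. Its level was 11.0 and 11.3 FPKM in acupuncture, 17.6 and 22.04 FPKM in ICH, and 16.4, 16.4 and 15.9 FPKM in sham libraries. Both acupuncture values lay under all others, and the difference from sham was -0.51 on the log2 scale (SE 0.11, limma adjusted p = 0.0294). Leaving out any 1 acupuncture or sham library took the adjusted p to between 0.0972 and 0.163, at log2 fold changes of -0.52 to -0.49. The other Kv1 genes did not pass: Kcna2 had 17.7 and 16.7 FPKM in acupuncture, against 20.8, 23.0 and 20.1 FPKM in sham libraries (log2 fold change -0.29, SE 0.10, limma adjusted p = 0.105). Kcna6 (Kv1.6) had 12.1 and 10.3 FPKM in acupuncture and 16.6, 15.4 and 15.1 FPKM in sham libraries (log2 fold change -0.46, limma adjusted p = 0.0805); the gene Gm26673 overlaps it on the other strand at a mean of 1.24 FPKM.

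Kcnab1, which encodes the Kvβ1 subunit that speeds inactivation of Kv1 channels (chr3:64949196-65378223, plus strand, GRCm38), had the smallest adjusted p of all channel genes. Its level was 5.58 and 4.13 FPKM in acupuncture, 7.86 and 7.65 FPKM in ICH, and 10.4, 10.5 and 9.76 FPKM in sham libraries, with no overlap between any pair of groups. The log2 fold change in acupuncture against sham was -0.95 (SE 0.12, limma adjusted p = 0.00345), and the call stood in all 19 alternatives, at adjusted p of 0.00285 to 0.0252. In ICH against sham it was -0.36 (SE 0.12, limma adjusted p = 0.161). The related Kcnab2 went the other way without passing: 56.0 and 54.6 FPKM in acupuncture, against 50.2, 53.0 and 46.9 FPKM in sham libraries (log2 fold change 0.14, limma adjusted p = 0.611). Kcnab3 (Kvβ3) had 27.0 and 27.9 FPKM in acupuncture, 16.4 and 13.5 FPKM in ICH, and 18.1, 19.6 and 13.2 FPKM in sham libraries. The acupuncture pair was above the other 5, but the call (log2 fold change 0.68, SE 0.17, limma adjusted p = 0.0495) was lost in 15 of 19 alternatives, including every one without an acupuncture or sham library, where the adjusted p ran from 0.0565 to 0.211. An antisense gene, Kcnab3os, overlaps Kcnab3 at a mean of 0.957 FPKM, and no source used here says whether reads were counted by strand.

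Kv3 channels, which let interneurons and other fast-firing cells repolarise quickly, had 2 of 4 genes called. Kcnc1 (Kv3.1) had 13.9 and 15.0 FPKM in acupuncture, 17.4 and 16.7 FPKM in ICH, and 20.2, 19.3 and 19.1 FPKM in sham libraries. Kcnc2 (Kv3.2) had 8.76 and 9.38 FPKM in acupuncture, 12.05 and 13.1 FPKM in ICH, and 12.9, 12.5 and 13.1 FPKM in sham libraries. In both genes the acupuncture pair lay lowest, with log2 fold changes against sham of -0.41 (SE 0.09, limma adjusted p = 0.0262) for Kcnc1 and -0.46 (SE 0.09, limma adjusted p = 0.0174) for Kcnc2. Without any 1 acupuncture or sham library the adjusted p was 0.0857 to 0.178 for Kcnc1 and 0.0583 to 0.127 for Kcnc2. The list of 7 interneuron markers summed to 250 and 239 FPKM in acupuncture and 293 to 302 FPKM in sham libraries, with 1 of 7 lower and called. Sst, Gad2, Lhx6 and Erbb4 lay lower in both acupuncture libraries than in all sham libraries. Vip lay higher, at 5.91 and 8.00 FPKM against 4.22 to 5.78 FPKM. Pvalb, at 52.6 and 32.3 FPKM against 31.7 to 47.4 FPKM, and Gad1, at 30.9 and 62.4 FPKM against 40.7 to 43.1 FPKM, overlapped sham. The part of these cells in the Kv3 difference was not tested.

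Among Kv7 genes, Kcnq3, a subunit of the M-channel, had 8.29 and 7.19 FPKM in acupuncture, 11.999 and 17.6 FPKM in ICH, and 12.8, 12.8 and 11.8 FPKM in sham libraries. The acupuncture pair was lowest, and the log2 fold change against sham was -0.63 (SE 0.16, limma adjusted p = 0.0489). Its call was lost without any 1 acupuncture or sham library, at adjusted p of 0.121 to 0.244. Kcnd2 (Kv4.2), the dendritic A-type channel and the highest of its subfamily, had 9.78 and 15.0 FPKM in acupuncture and 18.0, 17.9 and 17.5 FPKM in sham libraries, and did not pass (log2 fold change -0.52, SE 0.19, limma adjusted p = 0.153). Kcnn3 (SK3), a calcium-activated channel, had 1.94 and 1.84 FPKM in acupuncture, 2.80 and 3.60 FPKM in ICH, and 3.35, 2.57 and 3.19 FPKM in sham libraries; it missed the threshold at -0.48 (SE 0.13, limma adjusted p = 0.0657).

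**Figure D2:**
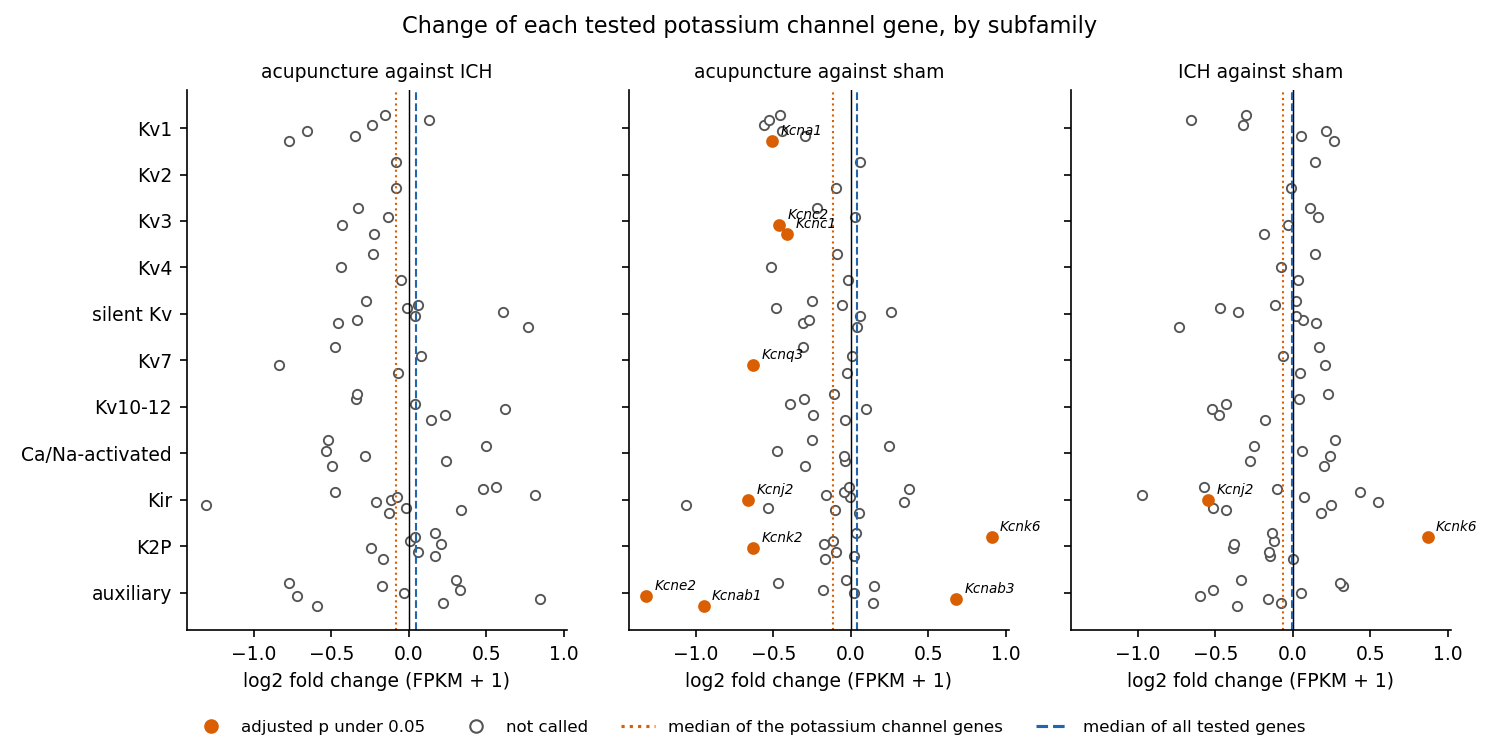
Log2 fold change on the FPKM + 1 scale (horizontal axis) of each of the 67 tested potassium channel genes, 1 point a gene, by subfamily, with panels for acupuncture against ICH, acupuncture against sham and ICH against sham; filled points are called genes, open points are not, and vertical lines mark 0 and the medians of channel genes and of all tested genes. The 6 Kv1 points of acupuncture against sham all lie below 0, as do the 3 Kv4 points, and no gene is called in acupuncture against ICH.

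The rectifier Kcnj2 was called lower and the two-pore channel Kcnk6 higher in both acupuncture and ICH against sham, and the two-pore channel Kcnk2 was called lower in acupuncture. Kcnj2 (Kir2.1; chr11:111066164-111076821, plus strand), a strong rectifier of neurons, microglia and vessels, had 3.02 and 2.72 FPKM in acupuncture, 2.92 and 3.49 FPKM in ICH, and 5.48, 5.09 and 4.83 FPKM in sham libraries. All 4 haemorrhage libraries lay under all 3 sham libraries. The log2 fold change was -0.66 in acupuncture against sham (SE 0.10, limma adjusted p = 0.00818) and -0.55 in ICH against sham (SE 0.10, limma adjusted p = 0.0292). Without acupuncture replicate 2 the first had an adjusted p of 0.0704; the second lost its call without any 1 sham or acupuncture library, at 0.0549 to 0.137. Kcnk2 (TREK1), a channel opened by stretch, lipids and volatile anaesthetics, had 7.57 and 7.26 FPKM in acupuncture, 8.31 and 9.66 FPKM in ICH, and 12.2, 11.8 and 12.1 FPKM in sham libraries. The 3 groups did not overlap, and the log2 fold change was -0.63 in acupuncture against sham (SE 0.09, limma adjusted p = 0.00637; 0.0592 without acupuncture replicate 2) and -0.39 in ICH against sham (SE 0.09, limma adjusted p = 0.0677). A pseudogene, Pdcd5-ps, with a mean of 18.3 FPKM lies inside Kcnk2 on the same strand over 381 bases, so reads of the pair may be shared.

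Kcnk6 (TWIK2), a two-pore channel known from macrophages, where it carries potassium out of the cell ahead of inflammasome activation, was the one called channel gene that was higher in both haemorrhage groups. It had 2.94 and 1.86 FPKM in acupuncture, 2.30 and 2.23 FPKM in ICH, and 0.598, 1.04 and 0.751 FPKM in sham libraries. Every haemorrhage library was above every sham library. Its sham mean was 0.798 FPKM, so it passed the filter through the haemorrhage libraries. The log2 fold change was 0.91 in acupuncture against sham (SE 0.17, limma adjusted p = 0.0171) and 0.87 in ICH against sham (SE 0.17, limma adjusted p = 0.0328). The first call was lost without sham replicate 1, sham replicate 3 or acupuncture replicate 1, at adjusted p of 0.0669 to 0.1, and the second without any 1 sham library or ICH replicate 2, at 0.056 to 0.123. Both were also lost with no filter on low values, at 0.0546 and 0.0986, and the second under quantile normalization, at 0.0613. The 10 microglia and macrophage markers summed to 510 and 503 FPKM in acupuncture, 446 and 393 FPKM in ICH, and 89.0, 103 and 110 FPKM in sham libraries, with 8 of 9 tested markers higher and called in either group against sham and 1 lower in acupuncture. Their part in the Kcnk6 difference was not tested. Kcnj2, also paired with these cells, was called lower in both groups against sham, opposite in direction to Kcnk6. The remaining channels paired with these cells, Kcnk13, Kcnn4 and Kcna3, did not pass or were not tested. Kcnk13 (THIK1), the tonic potassium channel of microglia, had 1.95 and 2.17 FPKM in acupuncture, against 1.98, 2.29 and 2.56 FPKM in sham libraries (log2 fold change -0.10, limma adjusted p = 0.659). Kcnn4 (KCa3.1) was under the filter at 0.347 and 0.368 FPKM in acupuncture, 0.180 and 0.168 FPKM in ICH, and 0.0896, 0.0264 and 0.0121 FPKM in sham libraries, with no overlap between groups and no test. Kcna3 (Kv1.3) had 1.22 and 1.64 FPKM in acupuncture, 3.01 and 2.61 FPKM in ICH, and 2.74, 2.22 and 1.95 FPKM in sham libraries, lowest in the acupuncture pair but short of the threshold against sham (log2 fold change -0.44, SE 0.14, limma adjusted p = 0.0998).

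ICH against sham gave 2 calls, Kcnj2 and Kcnk6, among 67 tested channel genes, or 2.99%, against 5.68% of all genes. At an unadjusted p below 0.05 there were 17, or 25.4%, against 21.5% of all genes. ICH and sham libraries did not overlap for 6 channel genes that were higher and 20 that were lower, with 21.5% and 18.8% of all genes as background, and the median log2 fold change was -0.07 for channel genes and -0.01 for all genes. The genes of smallest p that did not pass were led by Kcnk2 and Kcnj16. Kcnj16 (Kir5.1), which pairs with Kir4.1 in astrocytes, had 7.77 and 6.28 FPKM in acupuncture, 7.76 and 8.74 FPKM in ICH, and 4.97, 4.82 and 6.20 FPKM in sham libraries. Both haemorrhage groups were above sham, by 0.55 on the log2 scale in ICH (SE 0.14, limma adjusted p = 0.0729) and 0.34 in acupuncture (SE 0.14, limma adjusted p = 0.174). Its partner Kcnj10 had 38.9 and 40.2 FPKM in acupuncture, 37.5 and 49.8 FPKM in ICH, and 39.4, 33.4 and 41.9 FPKM in sham libraries, groups that overlap. The 9 astrocyte markers summed to 758 and 613 FPKM in acupuncture, 698 and 702 FPKM in ICH, and 286 to 309 FPKM in sham libraries, of which Gfap, a filament protein of reactive astrocytes, made up 362 to 451 FPKM in acupuncture, 338 and 394 FPKM in ICH and 24.0 to 29.4 FPKM in sham; the part of these cells in the Kcnj16 values was not tested. Kcnk1, the other gene paired with astrocytes, had 29.1 and 27.3 FPKM in acupuncture, 27.1 and 37.1 FPKM in ICH, and 29.8, 34.5 and 31.2 FPKM in sham libraries and did not pass in any comparison. Kcnip2 had 24.3 and 17.0 FPKM in ICH, against 28.7, 30.7 and 28.9 FPKM in sham libraries (log2 fold change -0.51, SE 0.15, limma adjusted p = 0.119). Kcnh4 (an ELK-type Kv12 channel) had 2.67 and 3.23 FPKM in ICH, against 4.36, 5.10 and 3.58 FPKM in sham libraries (-0.43, SE 0.14, limma adjusted p = 0.147), and Kcnh2 (ERG1) had 4.16 and 4.78 FPKM, against 7.20, 6.24 and 6.42 FPKM (-0.48, SE 0.16, limma adjusted p = 0.147).

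With both haemorrhage groups joined, 4 libraries against 3, 3 channel genes were called: Kcnk6 (log2 fold change 0.89, SE 0.14, limma adjusted p = 0.00659), Kcnj2 at -0.60 (SE 0.09, limma adjusted p = 0.00647) and Kcnk2 at -0.51 (SE 0.11, limma adjusted p = 0.0243). That is 4.48% of the 67, against 8.22% of all genes. The calls of Kcnk6 and Kcnj2 stood without any 1 library. That of Kcnk2 was lost without any 1 sham or acupuncture library or ICH replicate 1, at adjusted p of 0.0549 to 0.117. At an unadjusted p below 0.05 there were 14 channel genes, with 20.5% of all genes past that line. Libraries did not overlap for 2 channel genes that were higher and 12 that were lower, where 14.4% and 9.18% of all genes did not. Kcnj16, at 0.45 (SE 0.13, limma adjusted p = 0.0779), Kcnh4, at -0.41 (SE 0.11, limma adjusted p = 0.0756), and Kcnab1, at -0.65 (SE 0.19, limma adjusted p = 0.087), did not pass.

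Acupuncture against ICH, the comparison of needled with untreated haemorrhage, gave 0 called channel genes by limma, against 0.0366% of all genes, with the smallest adjusted p at 0.111. At an unadjusted p below 0.05 there were 20 of 67, or 29.9%, against 20.2% of all genes. Libraries of the pair did not overlap for 8 channel genes that were higher in acupuncture and 22 that were lower, with 28.8% and 20.7% of all genes as background. The median log2 fold change was -0.08 for channel genes and 0.05 for all genes. The smallest p was that of Kcna1, at the levels given above (log2 fold change -0.77, SE 0.12, limma adjusted p = 0.111). Kcnq3 followed at -0.83 (SE 0.17, limma adjusted p = 0.171), and Kcnab1, Kcnc2 and Kcnab3, at -0.59, -0.43 and 0.84, each had an adjusted p of 0.182. Kcna3, at -0.65 (SE 0.16), had an adjusted p of 0.183 in limma. Kcnt1 (Slack), a sodium-activated channel, had 16.5 and 16.4 FPKM in acupuncture, against 12.4 and 10.4 FPKM in ICH libraries (log2 fold change 0.50, SE 0.13, limma adjusted p = 0.187). Kcnj8 (Kir6.1), the ATP-sensitive channel of pericytes and vascular muscle, had 1.57 and 1.78 FPKM in acupuncture, 0.768 and 1.07 FPKM in ICH, and 0.975, 1.12 and 1.08 FPKM in sham libraries, with the acupuncture pair above the other 5 (0.48 against ICH, SE 0.13, limma adjusted p = 0.189). The 6 other mural markers summed to 36.7 and 33.7 FPKM in acupuncture and 30.8 and 43.4 FPKM in ICH libraries, and 0 of them were called.

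The 2 ICH libraries parted on many channel genes, and the counts of calls moved with them. Kcnj4 had 29.5 and 47.2 FPKM in acupuncture, 32.2 and 13.4 FPKM in ICH, and 41.2, 45.2 and 39.7 FPKM in sham libraries, so that 1 ICH library carried most of its difference from sham (log2 fold change -0.98, SE 0.35, limma adjusted p = 0.181). Kcnf1, at 18.4 and 9.41 FPKM, and Kcnh3 (a Kv12 channel of forebrain), at 13.1 and 9.12 FPKM in ICH libraries, were likewise lower in ICH replicate 2, against 21.1 to 23.9 FPKM and 13.8 to 19.7 FPKM in sham. Over the 67 tested genes the difference of ICH replicate 2 from ICH replicate 1 correlated with the logarithm of the annotated gene span at r = 0.473 (Spearman rho 0.427), a description across genes that share the same pair of libraries; over all tested genes r was 0.162. Of 19 channel genes spanning at least 100000 bases 17 were higher in ICH replicate 2, at a median difference of 0.30 on the log2 scale, and of the 48 shorter genes 18 were, at a median of -0.14. The median absolute difference of channel genes was 0.276 within the ICH pair, where that of all tested genes was 0.266, and 0.173 within the acupuncture pair. Without ICH replicate 1, which leaves a lone ICH library assumed to vary as the other groups do, 30 channel genes were called in acupuncture against ICH and 25 in ICH against sham, where 37.4% and 38.1% of all genes were called. Without ICH replicate 2 the counts were 0 and 2, the 2 being Kcnk2 and Kcnj2. The count of 10 in acupuncture against sham was 4 without sham replicate 1 or 3 and 5 without sham replicate 2. It also fell without either acupuncture library. The share of all genes called without a sham or acupuncture library is not given here, so these falls have no background. Without either ICH library the count of channel genes rose, and calls over all tested genes rose as well.

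**Figure D3:**
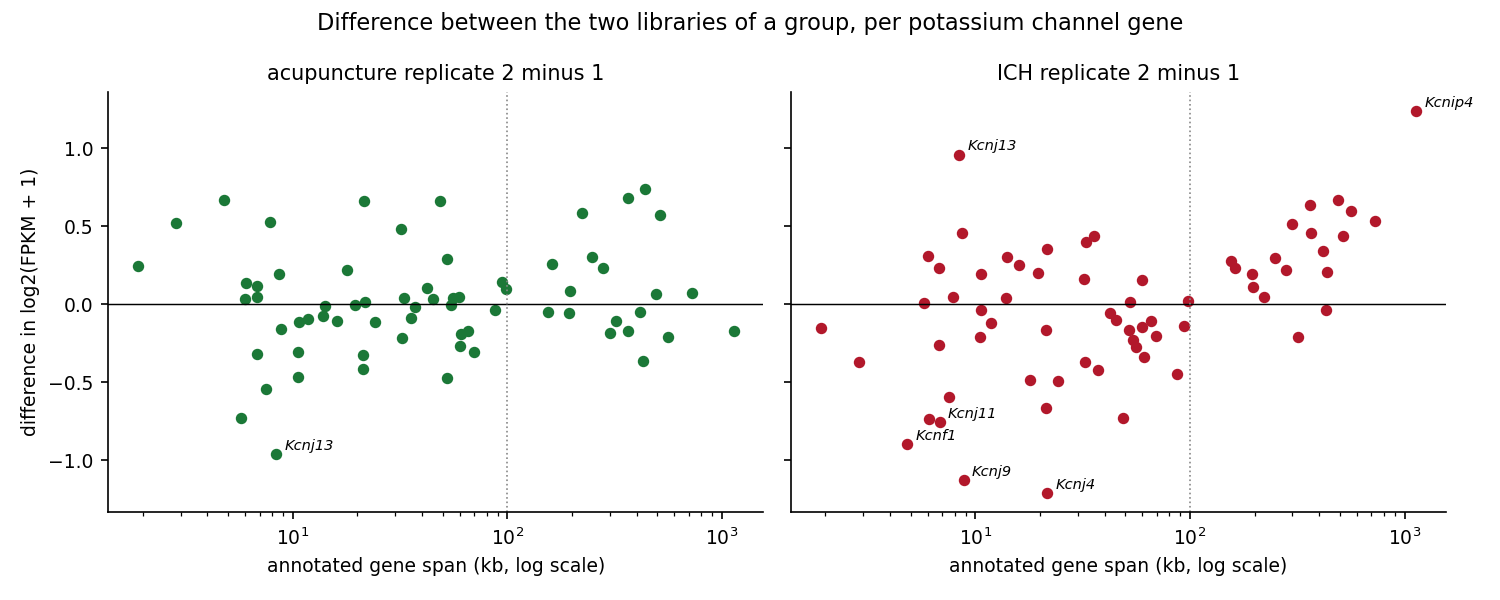
Difference in log2(FPKM + 1) between the 2 libraries of a group (vertical axis, replicate 2 minus replicate 1) against annotated gene span in kilobases on a log axis, 1 point for each of the 67 tested potassium channel genes, with acupuncture and ICH in separate panels. In ICH, 17 of the 19 genes of at least 100 kb lie above 0.

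Kcnab1, paired with striatal neurons, and Kcne2, paired with choroid plexus, were called lower in acupuncture against sham, beside large differences in the markers of those cells. The 10 markers of striatal projection neurons summed to 205 and 160 FPKM in acupuncture, 257 and 210 FPKM in ICH, and 507, 469 and 488 FPKM in sham libraries, with 10 of 10 lower and called in acupuncture against sham and 7 of 10 in ICH against sham. Of the 4 channel genes paired with these neurons, Kcnab1 was called lower in acupuncture, while Kcnip2, Kcnh4 and Kcnj4 were not called; the part of striatal cells in the Kcnab1 values was not tested. Kcne2 (MiRP1), a single-span subunit that the choroid plexus epithelium uses with Kv1.3 and KCNQ1, had 0.653 FPKM in acupuncture replicate 1 and was listed at 0 in acupuncture replicate 2. It had 1.11 and 1.13 FPKM in ICH and 2.26, 2.56 and 1.86 FPKM in sham libraries. The groups did not overlap, and the log2 fold change in acupuncture against sham was -1.32 (SE 0.22, limma adjusted p = 0.00989). The call stood in all 18 alternatives, with log2 fold changes of -3.07 to -0.96. It passed the filter through the sham and ICH libraries. The 6 other choroid plexus markers summed to 342 and 16.6 FPKM in acupuncture, 335 and 348 FPKM in ICH, and 485, 478 and 450 FPKM in sham libraries. Both this sum and Kcne2 were lowest in acupuncture replicate 2. Ttr made up most of the sum, at 335 and 1.13 FPKM in acupuncture. Among these markers only Aqp1 was highest in acupuncture replicate 2, at 15.0 FPKM against 1.03 to 1.75 FPKM in the other libraries. Of the 7 tested genes of the whole list, Kcne2 included, 2 were called lower in acupuncture against sham. Kcnj13 (Kir7.1), the apical rectifier of that epithelium, had 1.83 and 0.452 FPKM in acupuncture, 2.60 and 6.001 FPKM in ICH, and 3.13, 2.78 and 3.87 FPKM in sham libraries (log2 fold change -1.06 in acupuncture against sham, SE 0.36, limma adjusted p = 0.114). The gene Gigyf2 overlaps Kcnj13 on the other strand at a mean of 4.404 FPKM, and the part of choroid plexus tissue in these values was not tested.

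**Figure D4:**
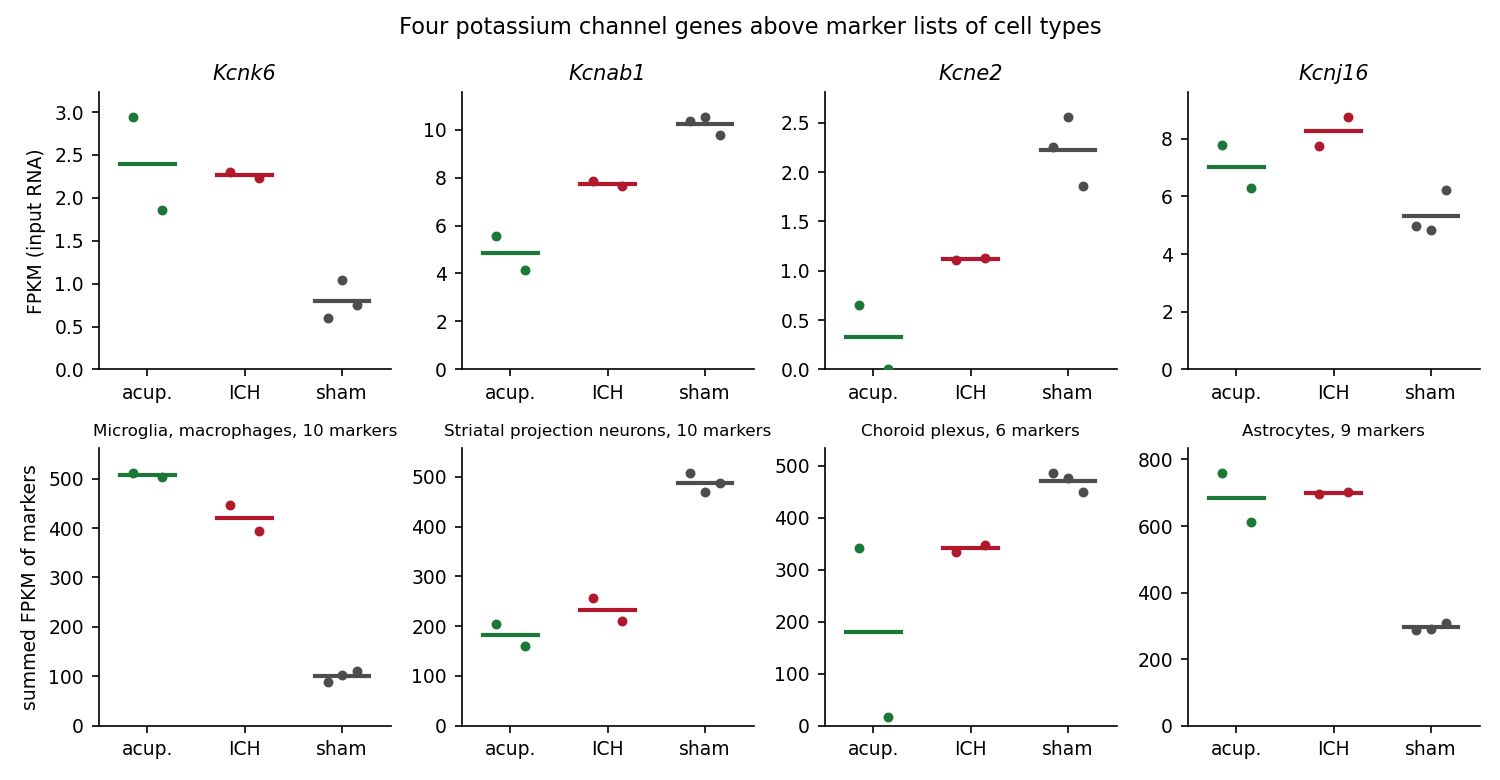
Potassium channel genes in FPKM (upper panels) above the summed FPKM of marker lists of the cell types they are paired with (lower panels), by library, with acupuncture, ICH and sham from left to right; points are libraries and short lines group means. The microglia and macrophage marker sum is higher in all 4 haemorrhage libraries than in sham. The choroid plexus marker sum is lowest in 1 acupuncture library, at 16.6 FPKM.

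Other ion transport genes, taken from lists of families chosen with earlier results of these data known, gave calls that were all lower. Among all tested genes, 3.22% were called lower in acupuncture against sham and 5.68% were called in either direction in ICH against sham. Among 4 HCN channels, which carry the hyperpolarisation-activated cation current, Hcn2 was called in acupuncture against sham (log2 fold change -0.64, SE 0.09, limma adjusted p = 0.00425) and in ICH against sham (-0.51, SE 0.09, limma adjusted p = 0.0179). Its level was 22.9 and 23.0 FPKM in acupuncture, 24.7 and 25.6 FPKM in ICH, and 37.4, 35.0 and 36.2 FPKM in sham libraries, with all 4 haemorrhage libraries under sham. In acupuncture against sham 3 of 8 sodium channel subunits were called lower, among them Scn1a at -0.63 (SE 0.10, limma adjusted p = 0.00878) and Scn4b at -1.34 (SE 0.32, limma adjusted p = 0.0389), and 1 of 15 calcium channel subunits, Cacna2d2 at -0.92 (SE 0.18, limma adjusted p = 0.0191). Of 10 tested partner proteins of potassium channels, Adam22, which anchors Kv1 channels near nodes of myelinated axons, was called lower (-0.35, SE 0.08, limma adjusted p = 0.0403), and of 10 tested pumps and cotransporters Slc12a2 (NKCC1) was (-0.62, SE 0.12, limma adjusted p = 0.0196). In acupuncture against ICH 0 genes of these lists were called by limma.

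The m6A measurements are the authors' peak lists, 1 for each group, with a log2 IP over input for each peak; they carry no replicate values, so differences between groups have no replicate check here. Channel genes held 263 peaks in 79 genes in acupuncture, 271 in 77 genes in ICH and 260 in 77 genes in sham brain, of 50105, 54754 and 48251 peaks in all. All 67 tested channel genes had a peak in all 3 groups, and 7 genes had one in none, the highest of which had a mean of 0.178 FPKM. Counting only peaks of at most 1000 bases, 59 channel genes had a peak in each group. The share of all genes with a peak was not counted, so these gene counts have no background. Kcnk15 and Kcnh8, at means of 0.135 and 0.160 FPKM, had a peak in acupuncture and in neither other list, and Kcnn4 in acupuncture and ICH. The share of channel peaks in 3′UTRs was 63.1% in acupuncture, 62.4% in ICH and 70.0% in sham, where all peaks had 54.7%, 52.3% and 54.5%. Their median log2 IP over input was 1.22, 1.28 and 1.11 in acupuncture, ICH and sham, against 1.12, 1.24 and 1.07 for all peaks. Of the acupuncture channel peaks 86.3% overlapped an ICH peak by at least 1 base, and of the ICH channel peaks 80.1% overlapped an acupuncture peak, where the shares of all peaks were 82.6% and 74.6%. Of the acupuncture channel peaks 82.5% overlapped a sham peak, and of the sham channel peaks 74.2% an acupuncture peak, where all peaks had 75% and 76.6%. Between ICH and sham the shares were 79.0% of ICH and 80.0% of sham channel peaks, against 71.0% and 80.2% of all peaks. Among narrow peaks the highest in genes averaging 1 FPKM or more was an intronic peak of Kcnab1 (chr3:65222403-65222652), at 4.80 in acupuncture and 4.65 in ICH, with no peak called there in sham. Kcng4 (Kv6.4) had a narrow 3′UTR peak of 4.03 in acupuncture, Kcnt2 (Slick) one of 3.18 in ICH, and Kcnk12 (THIK2) a narrow 5′UTR peak of 3.39 in sham. The other groups also had peaks in these genes. At any length, the highest was 2.99 in ICH and 3.60 in sham for Kcng4, and 2.21 in acupuncture and 1.68 in sham for Kcnt2. For Kcnk12 it was 3.19 in acupuncture and 3.03 in ICH. Other high peaks stood in genes of low level, such as Kcnj5 (GIRK4; mean 0.273 FPKM), at 5.24 in acupuncture, and Kcne4 (mean 0.383 FPKM), at 3.70 in acupuncture, 3.99 in ICH and 2.52 in sham.

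The authors' deposited tables of differential peaks list only peaks with their p below 0.05 or with no p. In acupuncture against ICH they hold 121 channel peaks in 57 genes, of which 39 were higher and 82 lower, or 67.8% lower, where 18.7% of all listed peaks were higher and 81.3% lower. In ICH against sham they hold 126 peaks in 60 genes, of which 85, or 67.5%, were higher and 41 lower, against 78.7% higher and 21.3% lower of all listed peaks. In acupuncture against sham they hold 92 peaks in 57 genes, with 40, or 43.5%, higher and 52, or 56.5%, lower, where the shares of all listed peaks were 58.2% and 41.8%. That direction turned among peaks of at most 1000 bases, with 26 higher and 19 lower, or 57.8% higher against 65.7% of all listed peaks of that length, and at an absolute difference of at least 1, with 9 higher and 7 lower, or 56.2% against 56.7%. Direction differed between peaks of the same gene: 14 genes had listed peaks both ways in acupuncture against ICH, 13 in acupuncture against sham and 18 in ICH against sham. In 3′UTRs 23 channel peaks were higher and 64 lower in acupuncture against ICH, and 64 were higher and 33 lower in ICH against sham. As shares these are 73.6% lower, against 85.3% of all listed 3′UTR peaks, and 66.0% higher, against 81.0%. Those counts share the ICH libraries and are not independent of each other.

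**Figure D5:**
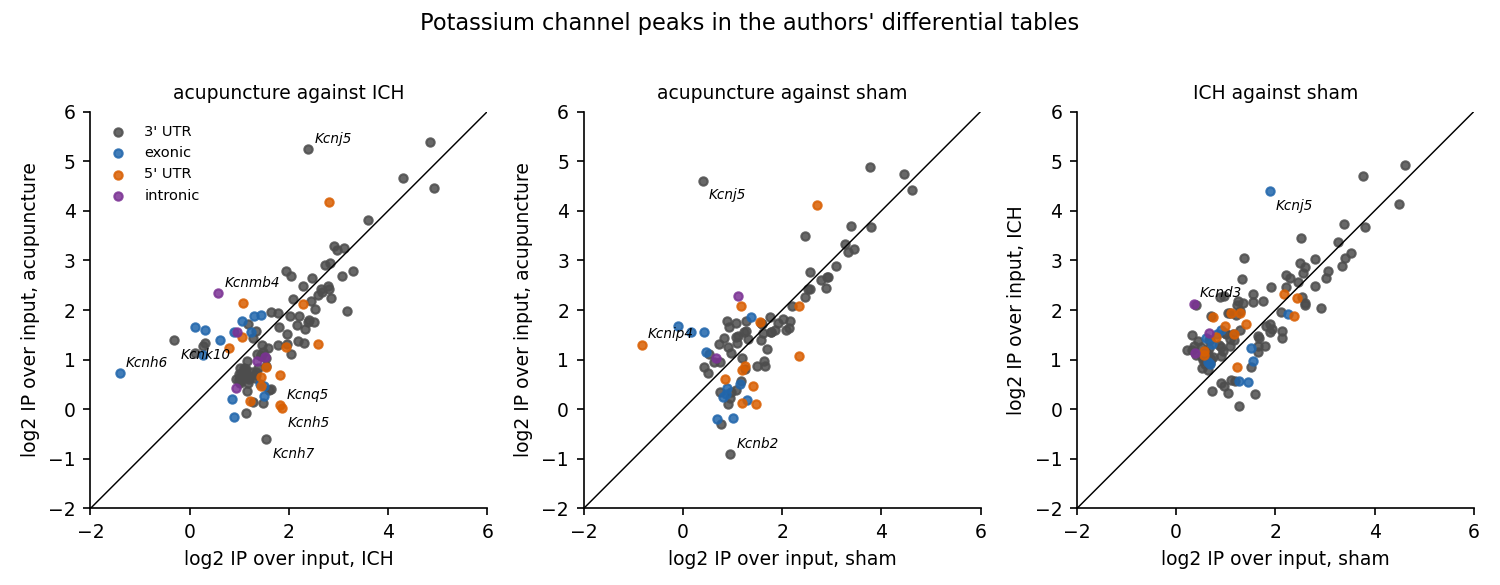
Log2 IP over input of potassium channel peaks in the authors' deposited differential tables, with the first group on the vertical axis and the second on the horizontal axis, 1 point a peak, coloured by region, and 1 panel for each comparison. More points lie below the line of equality in acupuncture against ICH (82 of 121) and above it in ICH against sham (85 of 126).

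For the called genes Kcnab1 and Kcnab3 the last stretch of the 3′UTR was listed in all 3 tables. In the authors' deposited table the Kcnab1 peak at chr3:65377825-65378223 had 1.32 in acupuncture and 1.97 in ICH (log2 IP over input; difference -0.64, authors' adjusted p = 1.29e-11), and 1.95 in ICH against 1.04 in sham (difference 0.90, authors' adjusted p = 2.90e-27). The Kcnab3 peak at chr11:69332653-69333042 had 1.79 in acupuncture and 2.40 in ICH (difference -0.61, authors' adjusted p = 1.91e-15) and 2.33 in ICH against 1.55 in sham (difference 0.79, authors' adjusted p = 5.76e-23), per the authors' deposited table. ICH was the highest of the 3 groups in both. The authors' deposited table also lists a Kcnj2 3′UTR peak of 800 bases at 2.15 in ICH against 1.36 in sham (difference 0.79, authors' adjusted p = 1.17e-06), beside the lower Kcnj2 RNA, and a Kcnj16 3′UTR peak at 1.88 in ICH against 0.71 in sham (difference 1.18, authors' adjusted p = 4.50e-08). A long gene could go both ways: in Kcnd2 the last 200 bases of the 3′UTR had 2.26 in ICH against 0.88 in sham, and a neighbouring peak of 5767 bases had 1.44 in ICH against 2.13 in sham, per the authors' deposited table.

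The largest listed differences were in few genes. In acupuncture against ICH, the authors' deposited table gives Kcnmb4, a BK channel β subunit, an intronic peak of 2.34 in acupuncture against 0.58 in ICH. Lower in acupuncture were a Kcnh7 (ERG3) 3′UTR peak at -0.60 in acupuncture against 1.55 in ICH, a Kcnh5 5′UTR peak at 0.02 against 1.86, a Kcnq5 (Kv7.5) 5′UTR peak of 239 bases at 0.09 against 1.83 and a Kcnk6 3′UTR peak at 0.13 against 1.48, per the authors' deposited table, all at authors' adjusted p of 0.00169 or below. Kcnh6, whose mean was 0.742 FPKM and whose RNA was not tested, had an exonic peak of 0.73 in acupuncture against -1.41 in ICH, per the authors' deposited table. In ICH against sham, the authors' deposited table gives Kcnd3 (Kv4.3) an intronic peak of 2.13 in ICH against 0.35 in sham and Kcnt2 a 3′UTR peak of 3.05 against 1.36. Kcnj5, at its low RNA level, had an exonic peak of 4.40 in ICH against 1.89 in sham, per the authors' deposited table. Lower in ICH were a Kcnb2 (Kv2.2) 3′UTR peak, at 0.30 in ICH against 1.59 in sham, and a long Kcnj6 (GIRK2) peak, at 2.05 against 2.92, per the authors' deposited table. In acupuncture against sham, the same low gene Kcnj5 had a 3′UTR peak of 4.61 in acupuncture against 0.40 in sham, per the authors' deposited table. A Kcnip4 5′UTR peak was at 1.31 in acupuncture against -0.83 in sham, per the authors' deposited table. The 5′UTR peaks of Kcnq5 (0.10 in acupuncture against 1.48 in sham, over 214 bases), Kcnn3 (1.07 against 2.33, over 89442 bases) and Kcnq3 (0.47 against 1.40) were lower, per the authors' deposited table.

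Since several of the largest differences lay at 5′ ends, the sequences at the starts of 4 genes with a peak that reaches the start in at least 1 group are shown. Each line gives 60 bases before the annotated start in lower case and the first 30 transcribed bases in capitals, 5′ to 3′ on the gene's strand, from RefSeq on GRCm38.p6: Kcnn3 (chr3:89520104-89520193, plus strand) and Kcnq5 (chr1:21961913-21962002, minus strand), whose 5′UTR peaks were lower in acupuncture, Kcnj2 (chr11:111066104-111066193, plus strand), a called gene whose gene-wide peak reaches the start in ICH and sham, and Kcnk12 (chr17:87797965-87798054, minus strand), the highest narrow peak in sham.
Kcnn3: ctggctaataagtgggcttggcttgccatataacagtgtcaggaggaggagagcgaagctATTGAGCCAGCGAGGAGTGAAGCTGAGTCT
Kcnq5: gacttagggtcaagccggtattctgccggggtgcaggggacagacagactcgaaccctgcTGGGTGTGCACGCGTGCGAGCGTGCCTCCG
Kcnj2: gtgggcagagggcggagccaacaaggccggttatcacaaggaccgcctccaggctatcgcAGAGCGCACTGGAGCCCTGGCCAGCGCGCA
Kcnk12: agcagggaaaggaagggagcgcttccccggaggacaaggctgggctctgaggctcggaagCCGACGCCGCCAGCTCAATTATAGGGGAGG
The peaks that reach these starts differ in length between groups, so their values are not for 1 common region. The Kcnn3 peak covered 500 bases from 100 bases into the gene in acupuncture (log2 IP over input 1.36), the first 675 transcribed bases in ICH (2.65) and the first 89442 bases of the gene in sham (2.37). Over the same 675 bases in both, the authors' deposited table gives 1.31 in acupuncture against 2.59 in ICH (authors' adjusted p = 7.89e-05). The Kcnq5 peak ran over 123780 bases in acupuncture, from 439 bases into the gene, and over the first 106092 bases in ICH, where that of sham covered the first 464 bases. The Kcnq5 values for a common stretch at the start are those of the differential peaks of 239 and 214 bases above. In Kcnk12 the peak ran over 52194 bases in acupuncture and in ICH, while that of sham covered the first 672 bases (3.39). The Kcnj2 peak ran over 7664 bases in acupuncture, from 50 bases into the gene, over the first 8464 bases in ICH and over the first 8364 bases in sham. All 3 were annotated to the 3′UTR and hold no separate value for the start. RefSeq gave start windows for 67 genes whose symbols fit the rule, 92 windows in all. These include Kcnj1, Kcnk16, Kcnk18 and Kcnmb3, which are not among the 87 genes and had no peak there. Of the 92 windows, 40 in 31 genes overlapped a peak in at least 1 group, long peaks included. The letters GGAC, a form of the m6A consensus searched on the transcribed strand in the first 50 transcribed bases, stood in 25.0% of those 40 windows, in 23.9% of the 92 and in 18.9% of all 32851 windows. None of the 30 transcribed bases printed for the 4 genes hold GGAC, which says only that these letters are not in the printed stretch. The first 50 transcribed bases of Kcnk12 do hold GGAC, past the printed 30, and those of the other genes shown do not.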

How the data were processed

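Brain tissue from 2 acupuncture, 2 ICH and 3 sham samples gave 14 libraries, 1 m6A immunoprecipitate and 1 input each. Per the labels' protocols, poly(A) RNA was purified, fragmented and immunoprecipitated, and libraries were stranded. Per the submitters' processing notes fastp, HISAT2, HOMER, StringTie and edgeR were used, with no roles or versions; the notes name GRCh38 and hg38, while the deposited identifiers are mouse Ensembl genes, and 83 of the 87 channel genes had a start or end within 1000 bases of RefSeq's GRCm38 gene. No source used here names the peak caller or says whether counting used strand.

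The authors deposited gene levels as FPKM, peaks as log2 IP over input with a p-value, 1 list for each group, and 3 tables of differential peaks with their own log2 differences and p-values. How libraries were pooled for peaks was not stated in these sources. Depth is unknown, since the deposited FPKM hold no counts, so no counting interval is given; summed FPKM was 179810 to 198472 a library. 2 columns of the table matched no sample and were not used.

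Levels of the 13666 genes averaging 1 FPKM or more in the 7 input libraries were tested as log2(FPKM + 1) with limma 3.58.1 in R 4.3.3, a mean for each group in 1 fit and a mean-variance trend, two-sided, with Benjamini-Hochberg adjustment over all of them; the 2 haemorrhage groups were also joined against sham. Tested on simulated data, the fit recovered 59.0% of 200 genes given a log2 change of 1 in acupuncture against ICH, 72.5% in ICH against sham, 69.0% in acupuncture against sham and 80.5% with the groups joined. Peak counts took the authors' calls, with overlap of at least 1 base on the same strand. Genes named are those called, the 8 of smallest p in each comparison, the highest of each subfamily and pairs with cell types. Peaks named are the 4 largest differences each way and the 5 highest narrow peaks a group, and peaks of called genes were added after their values were seen; some genes that these rules name are not reported here. The members and the lists were chosen with earlier results of these data known. Alternatives were other pseudocounts, filters, scalings and fits, and leaving out each library. Tables and figures were made in Python 3.11.15 with pandas 2.3.3, numpy 2.4.6 and matplotlib 3.10.9.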

Additional observations from a re-analysis of the deposited data

Results flagged for a closer look

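In the 4 haemorrhage libraries, 7 of 67 tested channel genes had 1 library far from the other 3: the gap to the nearest other library, divided by the whole range, was above Dixon's 95% critical value for 4 samples. Chance flags about 1 in 20 groups, and the share of all tested genes that would be flagged was not counted. ICH replicate 2 was the library apart in 5 of them, 4 of which are given here, with ratios of 0.96 for Kcnk3, 0.928 for Kcnh7, 0.906 for Kcnab2 and 0.9 for Kcnip4. Kcnk3 (TASK1), an acid-sensitive two-pore channel, had 4.10 and 4.04 FPKM in acupuncture and 4.07 and 2.79 FPKM in ICH libraries. Kcnh7 had 5.36 and 5.65 FPKM in acupuncture and 5.49 and 9.34 FPKM in ICH libraries. Kcnip4, a KChIP partner of Kv4 channels, had 9.69 and 8.50 FPKM in acupuncture and 10.2 and 25.45 FPKM in ICH libraries. Kcnab2 had 56.0 and 54.6 FPKM in acupuncture and 55.4 and 40.4 FPKM in ICH libraries.

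Kcna4 (Kv1.4) was apart in acupuncture replicate 1, at a ratio of 0.886, with 2.94 FPKM against 4.68 FPKM in acupuncture replicate 2 and 4.48 and 4.66 FPKM in ICH libraries. Kcnk13 was apart in acupuncture replicate 2, at a ratio of 0.842, with 2.17 FPKM against 1.91 to 1.95 FPKM in the other 3.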

How the results depend on the processing

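Of 171 alternatives to 23 counts and medians, 112 stayed within the spread or 1.5 times the value and 59 moved; of 2364 alternatives to 128 single-gene results, 77 lost a call, 70 gained one and 0 changed direction. In acupuncture against ICH, 0 channel genes were called in each alternative except without ICH replicate 1, and leaving out a library gave 0 to 30; their median log2 fold change of -0.08 was -0.1285 with a pseudocount of 0.1, -0.0306 with no filter, -0.1541 at a mean of at least 5 FPKM, -0.1484 and -0.1336 under quantile and upper-quartile scaling, and -0.1868 to -0.0841 with a library left out. In ICH against sham, the count of 2 was 0 with no filter or at 5 FPKM, 1 under quantile normalization or with only the groups compared, 4 at an adjusted p below 0.1, and 0 to 25 with a library left out. In acupuncture against sham, 10 became 5 at a mean of at least 5 FPKM, 18 with only the groups compared and 4 to 18 with a library left out; the median of -0.1144 was -0.1647 with a pseudocount of 0.1, -0.2127 and -0.1972 under quantile and upper-quartile scaling and -0.1797 to -0.1091 with a library left out. With the haemorrhage groups joined, 3 became 1 at 5 FPKM, 7 at an adjusted p below 0.1 and 2 to 8 with a library left out; the median of -0.1108 was -0.1668 under upper-quartile scaling and -0.1496 to -0.0594 with a library left out. Save for the lone libraries and smaller sets of genes and samples that the alternatives themselves create, the cause was not tested. The share of all genes called under each setting is not given beside these counts.

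Of the listed differential peaks in acupuncture against ICH, 39 higher ones became 18 at a span of at most 1000 bases and 10 at an absolute difference of at least 1, and 82 lower ones became 15 at that difference. In ICH against sham, 85 higher became 10 and 41 lower became 2 at that difference, and 12 of the lower were narrow. In acupuncture against sham, 40 higher became 26 when narrow and 9 at that difference, and 52 lower became 31 at the authors' adjusted p below 0.05, 19 when narrow and 7 at that difference.

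Deviations of same-numbered libraries correlated at -0.0149 to 0.0941, which shows no clear pairing by replicate number. In the acupuncture and ICH groups of 2 libraries the deviations mirror each other, so these values cannot exclude a pairing. With a replicate block, the count of called channel genes was 0 in acupuncture against ICH and in ICH against sham, 2 in acupuncture against sham (median -0.1797) and 0 with the groups joined (median -0.1496), where limma gave adjusted p of 0.0777 for Kcnk6 and 0.069 for Kcnj2. With no counts deposited, how depth limits low genes such as Kcnk6 and Kcne2 is unknown.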
